A study of Mus musculus with 24 samples.

Results

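Oxidative phosphorylation is carried out in the inner mitochondrial membrane by 5 protein complexes. Complexes I to IV pass electrons from NADH and succinate through ubiquinone and cytochrome c to oxygen and, except for complex II, pump protons; complex V, the ATP synthase, uses the proton gradient to make ATP. Most subunits are coded in the nucleus, translated on cytosolic ribosomes and imported, while a small number are coded by mitochondrial DNA, so that supply of both sets has to be matched. Bone marrow derived macrophages use this machinery for energy and also as a source of signalling oxidants.

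The genes described here are the 85 symbols, of 23337 in the total RNA count tables, that match the naming pattern of nuclear-encoded subunits: Nduf followed by a, b, c, s or v and a number (complex I, 37 genes), Sdha to Sdhd (complex II, 4 genes), Uqcr (complex III, 8 genes), Cox4 to Cox8 (complex IV, 19 genes) and Atp5 (complex V, 17 genes). The pattern uses names only and no measured value, but the group was chosen with earlier results of these data known. The pattern misses Cyc1 and Ndufab1, 2 genuine subunits, and takes in 4 genes that code no subunit in RefSeq's current naming or by common knowledge: Cox4nb (now Emc8, of an endoplasmic reticulum complex), Atp5s (Dmac2l) and Atp5sl (Dmac2), which are related to complex assembly, and Cox7a2l, a relative of Cox7a2 that joins complexes III and IV into supercomplexes. Ndufa4 was counted with complex I by its symbol although its protein is now placed with complex IV. None of the mitochondrially encoded subunits (13 symbols looked for) is among the symbols in the tables used here.

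Macrophages were grown for 7 days from femur marrow of C57BL/6J mice aged 6 to 12 weeks, with 20 ng/mL M-CSF (a growth factor that drives macrophage differentiation) and a feed at 40 ng/mL every 3 days. The mice were wild type (WT) or Apobec1 -/- (KO), and the series asks what functional APOBEC1, a cytidine deaminase that edits RNA, does to translation. Littermate or age-matched animals served as controls, and the sources used here name no other allele or agent that separates the groups. Each of 6 WT and 6 KO cultures gave 1 library of ribosome-protected fragments (RPFs or footprints, the stretches of mRNA covered by translating ribosomes) and 1 of total RNA. Batch 1 held WT1, WT2, WT3 and KO1, batch 2 held WT4, KO2, KO3 and KO4, and batch 3 held WT5, WT6, KO5 and KO6; the labels call these batches without saying what differed. Whether each culture is a separate animal is not stated, so the p-values cover the spread between cultures, part of which may be technical.

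Depth in genes was 5077478 to 12059361 counts for total RNA and 29561 (WT6) to 3714912 (WT4) for footprints, and over the 85 genes the cultures gave 31587 to 88529 total RNA counts and at most 38721 footprint counts. In footprints of WT6, 14 of the 85 were at 0, and a count of 0 there allows up to 101 counts per 1000000 library counts before any scaling, by counting error alone. All levels below are CPM (counts per 1000000 library counts) scaled by TMM. Apobec1 footprints were 59.7 to 102 CPM in WT and 0 to 24.3 in KO (KO1 the highest) while its total RNA was 313 to 474 CPM in WT and 604 to 1276 in KO, so footprints but not total RNA of the targeted gene were lower in the KO libraries. Csf1r, the receptor for M-CSF, was detected in every library (total RNA 950 to 4217 CPM), as were Emr1 (F4/80), Itgam (Cd11b) and Cd68. Marker sums of lymphocytes, dendritic cells and stroma were at most 8.71 CPM in total RNA and those of erythroid cells at most 0.331.

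All 85 symbols matched a RefSeq gene by symbol or synonym, and 69 had a promoter window (250 bases before to 50 after an annotated start, GRCm38.p6, the assembly of the mm10 build). The upstream part of 1 window per complex is printed. Eligible were members whose 250 bases before the start hold a motif of NRF1 or of the ETS family, regulators known for their sites in respiratory genes. Of these, the member with the smallest p in total RNA of batch 3 against batch 1, described further on, was taken in each complex. Each printed part thus holds a motif by choice, and a link of the motifs to the batch difference was not tested. Capitals mark the motif, either GCGCA and GCGC with any base between them (NRF1) or CCGGAAG or its reverse complement CTTCCGG (ETS). Ndufa11 is at chr17:56717512-56717761 on the plus strand, Sdhd at chr9:50603850-50604099, Uqcr11 at chr10:80406822-80407071, Cox6b1 at chr7:30626115-30626364 and Atp5g2 at chr15:102671048-102671297, all on the minus strand, and each sequence ends at the base before the annotated start.
Ndufa11: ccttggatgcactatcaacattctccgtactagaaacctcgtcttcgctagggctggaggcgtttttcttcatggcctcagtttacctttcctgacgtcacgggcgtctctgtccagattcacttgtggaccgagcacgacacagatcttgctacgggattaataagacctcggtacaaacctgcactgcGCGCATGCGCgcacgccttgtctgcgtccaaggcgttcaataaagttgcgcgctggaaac
Sdhd: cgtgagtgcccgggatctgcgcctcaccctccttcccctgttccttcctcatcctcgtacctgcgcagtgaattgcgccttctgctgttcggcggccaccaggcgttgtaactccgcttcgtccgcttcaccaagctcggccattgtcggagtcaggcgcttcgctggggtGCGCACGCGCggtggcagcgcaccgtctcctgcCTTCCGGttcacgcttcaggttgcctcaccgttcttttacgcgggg
Uqcr11: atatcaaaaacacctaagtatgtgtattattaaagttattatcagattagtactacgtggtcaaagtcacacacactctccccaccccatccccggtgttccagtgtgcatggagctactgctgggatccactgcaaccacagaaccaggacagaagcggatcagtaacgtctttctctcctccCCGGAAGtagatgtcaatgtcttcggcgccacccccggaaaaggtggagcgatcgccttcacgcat
Cox6b1: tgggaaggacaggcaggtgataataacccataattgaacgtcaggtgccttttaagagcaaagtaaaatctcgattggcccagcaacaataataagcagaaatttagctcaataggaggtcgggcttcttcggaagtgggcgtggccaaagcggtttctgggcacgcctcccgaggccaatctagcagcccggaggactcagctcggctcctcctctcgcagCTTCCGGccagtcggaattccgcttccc
Atp5g2: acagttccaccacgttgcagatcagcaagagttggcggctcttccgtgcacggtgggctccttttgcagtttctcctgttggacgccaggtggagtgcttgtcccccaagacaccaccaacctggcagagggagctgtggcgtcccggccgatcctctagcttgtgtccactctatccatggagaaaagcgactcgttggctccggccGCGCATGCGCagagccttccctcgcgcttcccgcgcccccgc

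The first capital lay 60 bases before the start in Ndufa11, 66 in Uqcr11, 28 in Cox6b1 and 42 in Atp5g2, and Sdhd held an NRF1 motif 79 bases and an ETS motif 46 bases before the start. Searched on both strands over the whole 300-base windows, the NRF1 motif with any middle base was held by 17 of the 69 members (24.6%) against 5.19% of 27025 genes with a window, and its exact palindrome with T in the middle by 5 (7.25%) against 1.07%. The ETS motif was held by 16 (23.2%) against 9.93%. TISU, an initiator element of genes with a short leader, searched as AAGATG joined to GCGGC, was held by 5 (7.25%) against 0.755%. By complex, the NRF1 motif with any middle base was in 7 of 32 windows of complex I, 2 of 3 of complex II, 1 of 5 of complex III, 1 of 13 of complex IV and 6 of 16 of complex V. The exact palindrome is a special case of the motif with any middle base, and a match describes the letters of a window, not binding.

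In these macrophages, 78 of the 85 genes passed the filter on low counts in total RNA and 75 in footprints. The 7 genes that did not pass in total RNA were all alternative forms of a subunit, most of them known from other tissues: Cox4i2 (lung), Cox6a2 and Cox8b (heart and skeletal muscle), Cox6b2 and Cox8c (testis), Cox7b2 and Ndufa4l2, the latter known to respond to hypoxia. Cox8b and Cox8c had no count in any of the 24 libraries, and Cox4i2, Cox7b2 and Ndufa4l2 had 2, 3 and 1 total RNA counts in all and no footprint. Cox6a2 had 34 total RNA counts, 13 of them in WT4, and Cox6b2 had 8. Of the muscle forms only Cox7a1 passed, with 0.936 to 4.98 CPM in total RNA; its 42 footprint counts in all did not pass. Atp5s and Atp5sl likewise passed in total RNA alone, with 62 and 159 footprint counts in all. The widely expressed forms Cox4i1, Cox6a1, Cox6b1, Cox7a2 and Cox8a were present in every total RNA library, at 258 to 509 CPM for Cox4i1 and 81.7 to 193 for Cox7a2. CPM are not divided by gene length here, so a level is compared only within a gene.

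The footprint to RNA ratio was high for most genes of complexes I and V and mixed in complexes III and IV. Expressed as log2 of footprints over total RNA and relative to the whole table of 7203 genes, 53 of 75 members were higher and 13 lower at an adjusted p under 0.05 (edgeR quasi-likelihood test over 24 libraries, Benjamini-Hochberg). Of all genes 73.9% were called, 37.3% higher and 36.6% lower, so a call as such is common, while the members' split was 53 to 13. Their median was 0.49 against 0.02 for all genes. Complex I had a median of 0.57 (27 of 36 higher, 3 lower), complex V 0.57 (13 of 15 higher, 1 lower), complex II 0.44 (3 of 4 higher, 1 lower) and complex III 0.43 (5 of 8 higher, 3 lower). Complex IV stood lower, at 0.06, with 5 of its 12 tested genes higher and 5 lower. Among the lower were Cox7a2l and Cox4nb, which code no subunit of it. Both lie below that median, so it is higher without them, but its value was not computed. The summed ratio of complex IV with structural subunits alone, described below, was 0.26. Footprints were counted over coding sequence per the deposited file names, while the region counted for total RNA is not given in the sources used here, so the ratio of 1 gene is compared with that of another only with this limit, and its part in the order was not tested.

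**Figure D1:**
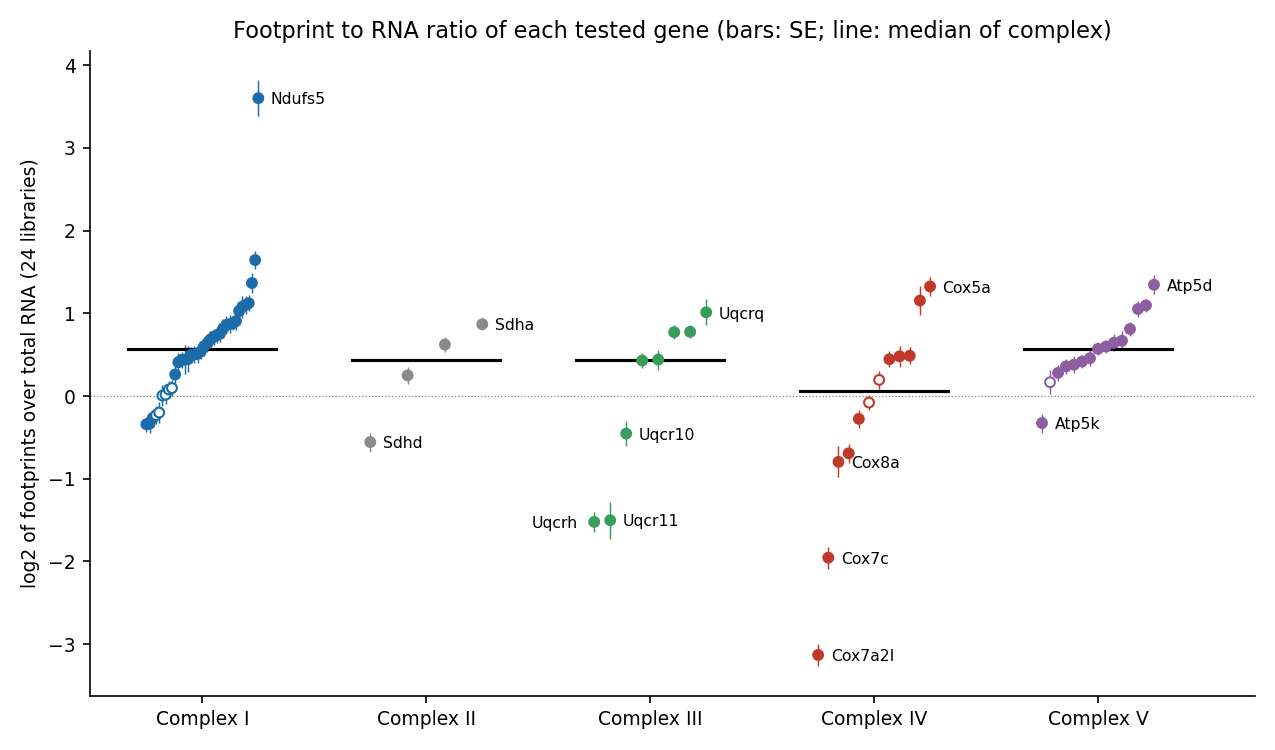
Log2 of footprints over total RNA (vertical axis) for the 75 tested genes, by complex; points are fitted values over 24 libraries, bars standard errors, filled points passed an adjusted p of 0.05 and black lines are medians. Most genes of complexes I and V lie above 0, while Cox7a2l (-3.13) and Cox7c (-1.95) in complex IV and Uqcrh (-1.52) and Uqcr11 (-1.50) in complex III lie far below.

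Within complex I the ratio was called lower for 3 genes, among them the accessory subunits Ndufa6 (-0.34 ± 0.11, standard error, as for all fitted values) and Ndufa2 (-0.27 ± 0.11). Core subunits called higher included Ndufs1 (0.75 ± 0.10), Ndufs7 (1.08 ± 0.13), Ndufs8 (0.86 ± 0.10) and Ndufv1 (0.50 ± 0.09), which carry iron-sulfur clusters. The accessory subunit Ndufa5 had 1.64 ± 0.10 (adjusted p = 7.25e-15): its total RNA was 16.2 to 31.5 CPM and its footprints were 37.3 to 110 CPM, above the total RNA value in each of the 12 cultures. Ndufs5, another accessory subunit, was the highest of all 75 at 3.60 ± 0.22 (adjusted p = 3.69e-15), but on 4 to 50 total RNA counts per library (0.81 to 7.54 CPM) against footprints of 0 (WT6) to 41.8 CPM. Ndufs5 is among 9 members for which RefSeq lists a pseudogene of the same name, and how the deposited counts treated reads shared with such copies is not given in the sources used here; its value is uncertain for that reason.

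Complex II, which is also an enzyme of the citric acid cycle, split by subunit. The flavoprotein Sdha had 0.87 ± 0.07 (adjusted p = 1.86e-12), with 210 to 264 CPM in total RNA and 348 to 506 CPM in footprints, so that all footprint values lay above all total RNA values. The iron-sulfur subunit Sdhb (0.25 ± 0.10) and the anchor Sdhc (0.62 ± 0.09) were called higher. The other membrane anchor, Sdhd, was called lower (-0.56 ± 0.11, adjusted p = 7.24e-05), with 82.2 to 145 CPM in total RNA and 42.5 to 106 CPM in footprints, which overlap.

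Complex III had 2 groups of subunits. The core proteins Uqcrc1 (0.78 ± 0.08) and Uqcrc2 (0.77 ± 0.08), the Rieske iron-sulfur protein Uqcrfs1 (0.43 ± 0.09), Uqcrb (0.44 ± 0.12) and Uqcrq (1.01 ± 0.16) were called higher. The small subunits Uqcrh, the hinge protein next to cytochrome c1 (-1.52 ± 0.12, adjusted p = 5.8e-13), Uqcr11 (-1.50 ± 0.22, adjusted p = 1.81e-06) and Uqcr10 (-0.45 ± 0.15, adjusted p = 0.00748) were called lower. Total RNA of Uqcrh was 138 to 264 CPM and its footprints 38.4 to 107 CPM, without overlap. RefSeq lists 2 pseudogenes named after Uqcrh, so its counts are uncertain in the same way as those of Ndufs5.

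Complex IV spread furthest. Cox5a, a subunit on the matrix side of the enzyme, was at 1.32 ± 0.12 (adjusted p = 1.13e-11) and Cox6a1, the widely expressed form of subunit 6a, at 1.15 ± 0.17; Cox5b, Cox6c and Cox7a2 were called higher at 0.44 to 0.49. Cox7c (-1.95 ± 0.13, adjusted p = 4.41e-14) had 62.0 to 110 CPM in total RNA and 0 (WT6) to 32.2 CPM in footprints; RefSeq names a pseudogene of it. Cox8a (-0.80 ± 0.19) and Cox7b (-0.28 ± 0.11) were also called lower. The 2 genes of the group that code no complex IV subunit were both lower: Cox4nb by -0.69 ± 0.11, and Cox7a2l by -3.13 ± 0.14 (adjusted p = 1.54e-18), the lowest of the 75, with 234 to 381 CPM in total RNA and 10.6 to 61.8 CPM in footprints.

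In complex V the catalytic subunits Atp5a1 (alpha, 0.42 ± 0.08) and Atp5b (beta, 0.60 ± 0.08) and the central stalk subunits Atp5c1 (gamma, 0.57 ± 0.08), Atp5d (delta, 1.34 ± 0.12, adjusted p = 1e-11) and Atp5e (epsilon, 0.36 ± 0.09) were called higher, Atp5d being the highest of the complex. The 3 genes of the proton-carrying c ring, Atp5g1, Atp5g2 and Atp5g3, code the same mature protein behind different import sequences; they had 0.67 ± 0.11, 0.38 ± 0.10 and 1.05 ± 0.09. Atp5k (subunit e of the membrane part) was the only member of complex V called lower (-0.33 ± 0.11, adjusted p = 0.0115), and Atp5l (subunit g) did not pass at 0.17 ± 0.14.

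Summing the CPM of a complex in each culture gave the same ranking at its ends, with a spread over cultures. The log2 ratio of summed footprints to summed total RNA was 0.51 ± 0.11 (SD, n = 12 cultures) for complex V, 0.46 ± 0.10 for complex I, 0.45 ± 0.20 for complex II, 0.09 ± 0.19 for complex III and -0.02 ± 0.13 for complex IV. Complex IV was below complexes I and V in 12 of 12 cultures and complex III was below both in 12 of 12. The sum of complex III includes Uqcrh, its most abundant RNA, with a ratio of -1.52 and uncertain counts. Uqcrh pulls that sum down, since the median over the 8 genes of complex III was 0.43, with 5 called higher. The place of complex III is thus given only with Uqcrh included, and its place without Uqcrh was not tested. Complexes I and V differed by 0.06 ± 0.08 (SD of the difference), with V above I in 10 of 12. Complexes III and IV could not be ordered, since IV was the lower in 8 of 12 cultures. The low value of complex IV rested on Cox7a2l: without that gene the ratio of complex IV was 0.24 ± 0.12, above complex III in 10 of 12 cultures and still below I and V in 12 of 12, and with structural subunits alone it was 0.26 ± 0.13. By genotype, all 12 values of complex I lay between 0.23 (WT5) and 0.56 (KO6), and WT and KO overlapped in all 5 complexes. In batch 3 alone complex V stood at 0.68 in both KO5 and KO6 and at 0.40 and 0.39 in WT5 and WT6. Complex I (0.55 and 0.56 against 0.23 and 0.51) and complex II (0.78 and 0.59 against 0.43 and -0.05) also had both KO above both WT. In complexes III and IV the genotypes overlapped there. These differences were not tested by themselves.

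**Figure D2:**
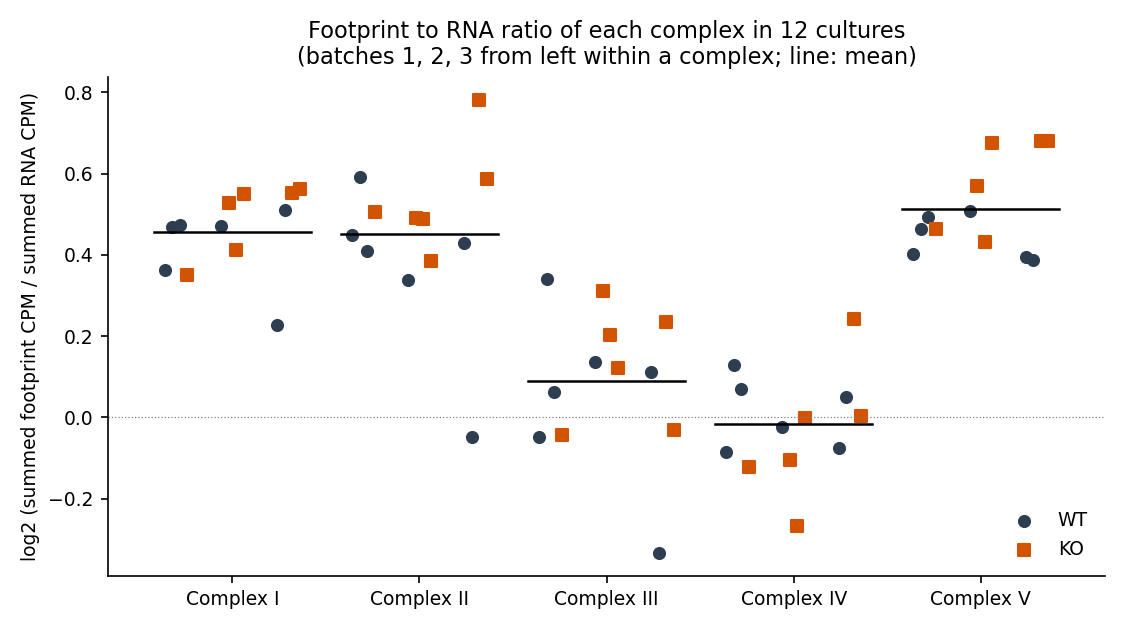
Log2 of summed footprint CPM over summed total RNA CPM (vertical axis) for each complex in the 12 cultures; circles are WT, squares KO, batches 1 to 3 run from the left within a complex and lines are means. Complexes III (0.09) and IV (-0.02) lie below complexes I (0.46) and V (0.51), with overlapping ranges of WT and KO. The sums include Uqcrh in complex III and Cox7a2l in complex IV.

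Whether loss of APOBEC1 changed these genes was asked in each kind of library with batch in the model. In total RNA 0 of 78 members passed an adjusted p of 0.05 (2 of 10942 genes did, 0.0183%). An unadjusted p under 0.05 was found for 11 members (14.1%, against 4.68% of all genes), all of them lower in KO. The fitted difference was negative for 77 of 78 members, against 50.5% of all genes. Its median was -0.16 on the log2 scale against 0.00 for all genes. It was similar in size across complexes, at -0.16 in complex I, -0.10 in II, -0.13 in III, -0.21 in IV and -0.15 in V. In 0 of 78 members was every KO culture below every WT culture. The share over all genes was not computed, and batches 1 and 2 held unequal numbers of WT and KO cultures, so no conclusion is drawn from it. DESeq2 and limma also called 0, and in limma the median was -0.05 with 60 of 78 members lower. In the 4 cultures with at least 1000000 footprint counts (KO2, KO4, WT1 and WT4) the median was -0.46. Batch 1 is WT1 alone in that subset, so the genotype difference there compared KO2 and KO4 with WT4 alone.

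The smallest p in each complex were those of Ndufc1 (-0.32 ± 0.11, adjusted p = 0.859), Sdhb (-0.18 ± 0.09), Uqcr11 (-0.27 ± 0.12), Cox7c (-0.25 ± 0.09) and Atp5g2 (-0.25 ± 0.09), and the adjusted p of all 5 was 0.859. For Ndufc1, a small accessory subunit of complex I, total RNA in WT was lowest at 23.0, with a median of 26.3 and a highest value of 37.6 CPM, and in KO it was 16.2, 20.7 and 33.3 CPM. The 2 ranges overlap over most of their length. Most abundant by CPM in complexes II to V were Sdha (WT 216, 238 and 264 CPM as lowest, median and highest; KO 210, 220.0 and 231), Uqcrh (WT 185, 206 and 264; KO 138, 175 and 213), Cox4i1 (WT 323, 367 and 509; KO 258, 335 and 421) and Atp5a1 (WT 643, 723 and 898; KO 486, 655 and 879). All 4 overlap between genotypes.

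By batch, the members were lower in KO in batches 2 and 3 and not in batch 1. Within batch 1 (1 KO against 3 WT cultures) the median KO minus WT difference of the 78 members was 0.04 and 29 were lower, within batch 2 (3 KO against 1 WT) it was -0.38 and 77 were lower, and within batch 3 (2 against 2) it was -0.14 and 67 were lower. Batch 2 has WT4 as its only WT culture, and without WT4 the median of all batches was -0.06 with 62 of 78 lower. WT4 also differed from the 3 KO cultures of its batch in cell type markers. The summed total RNA of the 12 neutrophil markers was 590.0 CPM in WT4 against 153 to 199 in the KO cultures, and that of the 9 macrophage markers in the tables was 49204 against 27814 to 32111; the part of this in the difference was not tested.

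In footprints 0 of 75 members passed (6 of 7208 genes did, 0.0832%), and DESeq2 and limma called 0 as well. Lower in KO were 63 members (84.0%, against 47.6% of all genes). An unadjusted p under 0.05 was found for 14 (18.7%, against 8.52% of all genes), all lower. The median was -0.19 against 0.01 for all genes, with -0.17 in complex I, 0.02 in II, -0.24 in III, -0.38 in IV and -0.18 in V. The member with the smallest p was Cox7b, a small subunit of complex IV coded on the X chromosome (-0.63 ± 0.18, adjusted p = 0.203): its footprints in WT were 58.1, 78.1 and 101 CPM as lowest, median and highest, and in KO 43.8, 61.5 and 106, which overlap. The others were Ndufb5 (-0.61 ± 0.19, adjusted p = 0.293), Sdhd (-0.50 ± 0.20, 0.468), Uqcr10 (-0.44 ± 0.21, 0.548) and Atp5e (-0.35 ± 0.15, 0.512). By batch the median was -0.01, -0.38 and 0.09, while that of all genes was 0.01, -0.01 and 0.24. In batch 3 the members thus lay below all genes by median, although their own median was positive. Without WT4 the median of all batches was 0.01, with 35 of the 74 then tested lower. Of the neutrophil markers, 7 were tested in footprints, all 7 were lower in KO (median -0.84) and 2 were called lower; their part in the members' values was not tested. Without KO1 5 members were called, all lower, where 3.45% of 7786 genes were called. In the same 4 deepest cultures the median was -0.40. In that subset WT4 and both KO cultures are of batch 2 and WT1 alone is of batch 1. The genotype difference there thus rests on WT4 as the only WT culture compared with KO.

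**Figure D3:**
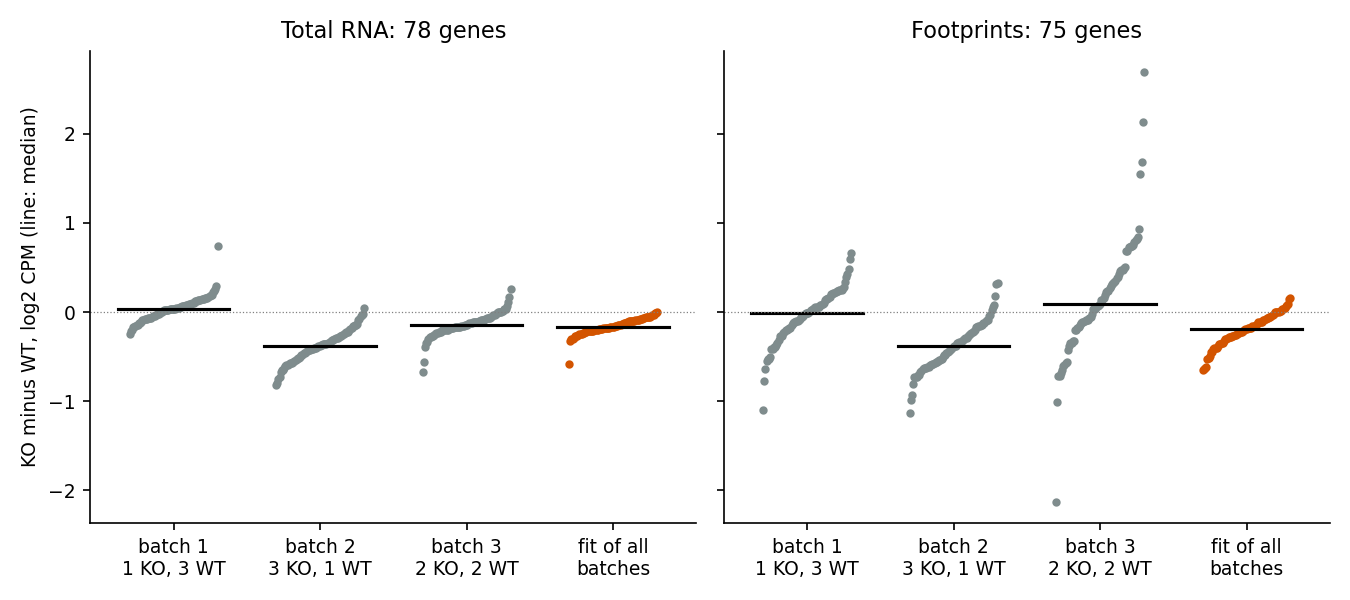
KO minus WT difference in log2 CPM (vertical axis) of each member tested in total RNA (left, 78 genes) and footprints (right, 75 genes), within each batch (grey) and in the fit over all batches (orange); black lines are medians. Total RNA medians are 0.04, -0.38 and -0.14 in batches 1, 2 and 3 and footprint medians -0.01, -0.38 and 0.09. Over all genes tested the footprint medians are 0.01, -0.01 and 0.24.

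The footprint to RNA ratio, called translational efficiency where it is compared between groups, did not differ detectably between genotypes. Of 75 members 0 passed (1 of 7203 genes did, 0.0139%), and DESeq2 and limma called 0. An unadjusted p under 0.05 was found for 2 (2.67%, against 2.51% of all genes). In KO 48 were lower (64.0%, against 50.2% of all genes), and the median was -0.05. Smallest in p by complex were Ndufa7 (-0.44 ± 0.20), Sdhd (-0.41 ± 0.22), Uqcrc1 (-0.19 ± 0.14), Cox7b (-0.44 ± 0.22) and Atp5g1 (-0.36 ± 0.19), each with an adjusted p of 1.0. In complex IV 11 of 12 genes were lower with a median of -0.13, and in complex I 22 of 36 with -0.03. The authors' deposited table over all genes gives an adjusted p for 83 of the 85 members and for 0 of them under 0.05; its smallest p among them is that of Ndufa7 (0.00738, adjusted 0.983), and in the authors' deposited table of a top 25 percent of genes Ndufa7 has an adjusted p of 0.418.

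The genotype difference itself was compared between batches by an interaction test with 2 degrees of freedom. In total RNA 0 of 78 members passed (0.987% of 10942 genes did). There 7 members had an unadjusted p under 0.05 (8.97%, against 12.8% of all genes). In footprints 1 of 75 passed (2.01% of 7208 genes did). In total RNA 2 members passed in DESeq2, where 370 of 10942 genes did. In limma 3 passed, where 4.03% of genes did, and in edgeR without KO3 also 3, where 4.37% did. The 1 in footprints was Cox5a (adjusted p = 0.0224). Its footprints in batch 1 were 164, 219 and 234 CPM in WT1, WT2 and WT3 and 209 in KO1. In batch 2 WT4 stood at 374 CPM against 203, 184 and 179 in KO2, KO3 and KO4, while in batch 3 WT5 and WT6 had 198 and 188 and KO5 and KO6 246 and 244. The KO value was thus inside the WT range, below it and above it in turn. Without KO3 2 members were called in footprints, where 5.46% of genes were. The call of Cox5a was lost without WT5 (adjusted p = 0.0721), without both KO6 and WT6 (0.0688) and in DESeq2 (0.0719), and total RNA of Cox5a had an adjusted p of 0.114 in the same test, with 136 CPM in WT4 against 68.9 to 88.2 in KO2 to KO4.

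Between batches many members passed the test. Over all 85 the summed total RNA was 7320 to 7739 CPM in batch 1, 6278 to 8887 in batch 2 and 8460 to 11013 in batch 3, and summed footprints were 8780 to 10198, 8300.0 to 11229 and 10508 to 13984 CPM. The lowest batch 3 culture was above all 4 of batch 1 in both kinds of library, and WT4, the highest of batch 2, lay within the batch 3 range in both.

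**Figure D4:**
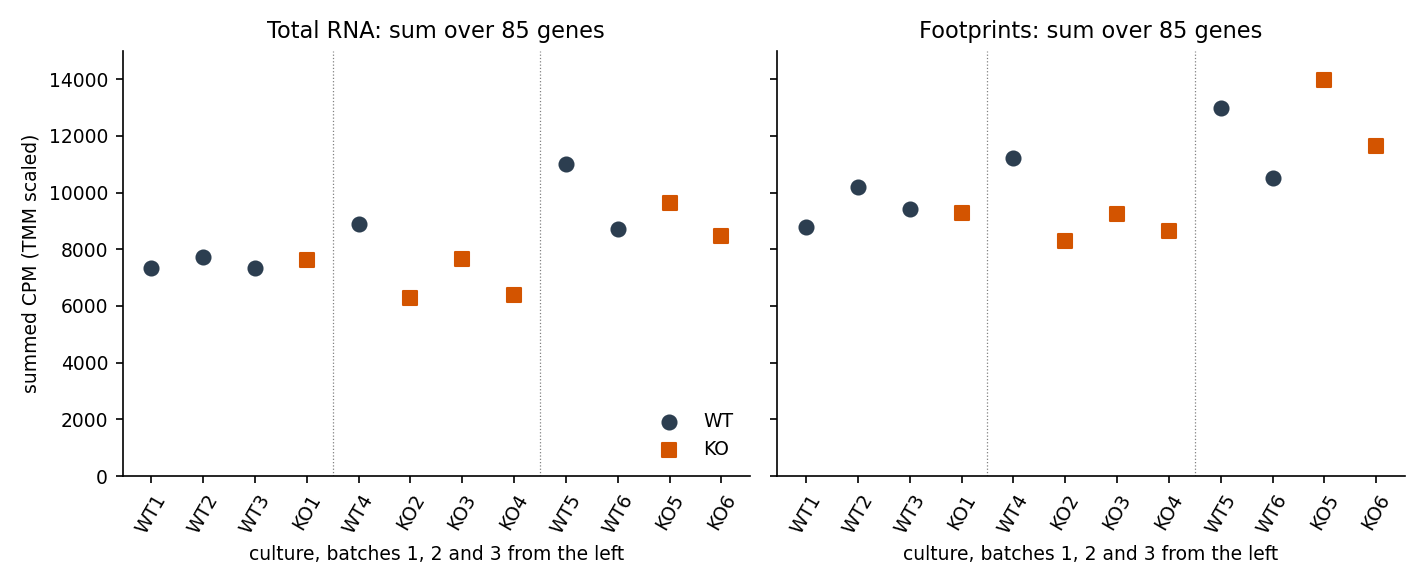
Summed CPM of the 85 genes (vertical axis, from 0) in total RNA (left) and footprints (right) for each culture; circles are WT, squares KO, and dotted lines part batches 1, 2 and 3. Batch 3 cultures reach 8460 to 11013 CPM in total RNA against 7320 to 7739 in batch 1.

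In total RNA of batch 3 against batch 1, 50 of 78 members rose and 0 fell, where 45.3% of all 10942 genes were called and 23.0% were called higher. The median was 0.44 against 0.01 for all genes. All complexes took part: 22 of 36 genes rose in complex I, 3 of 4 in II, 3 of 8 in III, 10 of 13 in IV and 12 of 17 in V. Every batch 3 culture was above every batch 1 culture in 43 of the 78 members, against 23.3% of all genes. Within WT alone the median difference was 0.44 with 72 of 78 higher, and within KO alone, with 1 culture in batch 1, it was 0.26 with 68 higher.

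Ndufs8, the core subunit that carries 2 of the iron-sulfur clusters on the way to ubiquinone, had 21.3, 22.9, 23.7 and 25.6 CPM in WT1, WT2, WT3 and KO1 and 56.4, 45.5, 53.4 and 46.7 CPM in WT5, WT6, KO5 and KO6. It rose by 1.12 ± 0.13 on the log2 scale (2.17-fold, adjusted p = 1.55e-05), and batch 2 with 29.6 to 41.6 CPM lay between the others without overlap. Of the c ring genes Atp5g1 had 40.9 to 44.5 CPM in batch 1 and 65.7 to 74.2 in batch 3 (0.76 ± 0.10, adjusted p = 7.82e-05), and Atp5g2 67.9 to 80.0 and 100.4 to 151 (0.76 ± 0.10, 7.07e-05), and Atp5g3 at most 108 and at least 139 (0.63 ± 0.13, 0.00119). None of the 3 overlapped between these batches. Further members that rose were Ndufa11 (0.75 ± 0.12), Uqcrb (0.64 ± 0.13), Uqcr11 (0.50 ± 0.14), Uqcrfs1 (0.37 ± 0.12), Cox7a2 (0.70 ± 0.13), Cox5b (0.70 ± 0.13) and the complex II genes Sdhd (0.49 ± 0.11), Sdhc (0.45 ± 0.12) and Sdhb (0.33 ± 0.11).

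Some subunits did not follow. Sdha, the partner of those 3 genes, had 231 to 251 CPM in batch 1 and 215 to 216 in batch 3 (-0.12 ± 0.08, adjusted p = 0.212). Uqcrh (0.12 ± 0.13, adjusted p = 0.449) and Atp5a1 (0.18 ± 0.11, 0.189) did not pass either. Cox7a2l had 318 to 345 CPM in batch 1 and 234 to 381 in batch 3 (-0.22 ± 0.13, 0.182), with WT5 apart from the 3 other batch 3 cultures. Among tissue forms, Cox7a1 passed at 0.95 ± 0.34 on 11 to 33 counts per library.

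Against batch 2, total RNA of batch 3 showed 47 members higher and 4 lower (of all genes 49.2% were called and 24.7% called higher), with a median of 0.38. The smallest p was that of Ndufb6, an accessory subunit of the membrane arm, with 23.7 to 35.7 CPM in batch 2 and 60.5 to 81.8 in batch 3 (1.19 ± 0.13, adjusted p = 1.37e-05). Ndufb2 (0.86 ± 0.15), Atp5k (0.83 ± 0.14) and Uqcrb (0.78 ± 0.13) followed, and Atp5f1 (0.59 ± 0.11), Cox7a2 (0.69 ± 0.13), Cox4nb (0.44 ± 0.08), Uqcr11 (0.56 ± 0.14), Uqcrc2 (0.41 ± 0.09), Uqcrh (0.35 ± 0.13), Sdhb (0.34 ± 0.11) and Sdhc (0.35 ± 0.12) rose too. Those that fell were Ndufs7 (-0.54 ± 0.14), Cox8a (-0.47 ± 0.16), Atp5sl (-0.43 ± 0.12) and Ndufa3 (-0.31 ± 0.12). Between WT cultures alone the median was 0.20 (59 of 78 higher, WT4 being the 1 WT culture of batch 2), and between KO cultures 0.46 (68 higher).

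Batch 2 against batch 1 gave a mixed result in total RNA, with 9 members higher and 2 lower where 23.5% of all genes were called, a share above the members' own. Higher were Atp5g2 (0.68 ± 0.11, adjusted p = 0.00124), Atp5sl (0.73 ± 0.13), Atp5d (0.63 ± 0.15), Cox6a1 (0.70 ± 0.14), Cox8a (0.68 ± 0.16), Ndufs8 (0.64 ± 0.14), Ndufs7 (0.57 ± 0.15), Ndufa3 (0.55 ± 0.12) and Ndufa11 (0.51 ± 0.12). Ndufb6 (-0.45 ± 0.14) and Ndufs1 (-0.33 ± 0.09) were lower. Without WT4, 5 were called in place of 11. The share of all genes called without WT4 is not given here, so the drop is not taken as particular to the members.

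Footprints of batch 3 against batch 1 rose in 30 of 75 members and fell in 0, where 20.8% of 7208 genes were called and 9.54% called higher; the median was 0.50 against -0.03. Complex V had 10 of 15, complex IV 6 of 12, complex I 10 of 36, complex II 2 of 4 and complex III 2 of 8. Of the 50 members higher in total RNA, 27 were also called in footprints (54.0% of the 50 and 90.0% of the 30). Cox6b1, which faces the intermembrane space and bridges the complex IV dimer, had 110 to 141 CPM in batch 1 and 427, 295, 310 and 149 CPM in WT5, WT6, KO5 and KO6 (1.30 ± 0.20, adjusted p = 1.08e-05), with KO6 close to the batch 1 values. Atp5l had 87.1 to 125 and 188 to 289 CPM (1.26 ± 0.21, 3.23e-05) and Ndufs8 29.0 to 48.2 and 96.5 to 149 CPM (1.55 ± 0.26, 4.97e-05), both without overlap. Ndufa10 (1.12 ± 0.24), Uqcrq (1.19 ± 0.33), Uqcrfs1 (0.79 ± 0.22), Cox5b (0.87 ± 0.21), Atp5g3 (0.90 ± 0.19), Sdhb (0.64 ± 0.23) and Sdhc (0.57 ± 0.20) rose as well. Batch 3 held the 4 shallowest footprint libraries, and without KO5 13 members were called in place of 30 (12.8% of all genes were then called). Within WT alone the median difference of batch 3 from batch 1 was 0.25, with 47 of 75 members higher, and within KO alone 0.42, with 56 higher.

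**Figure D5:**
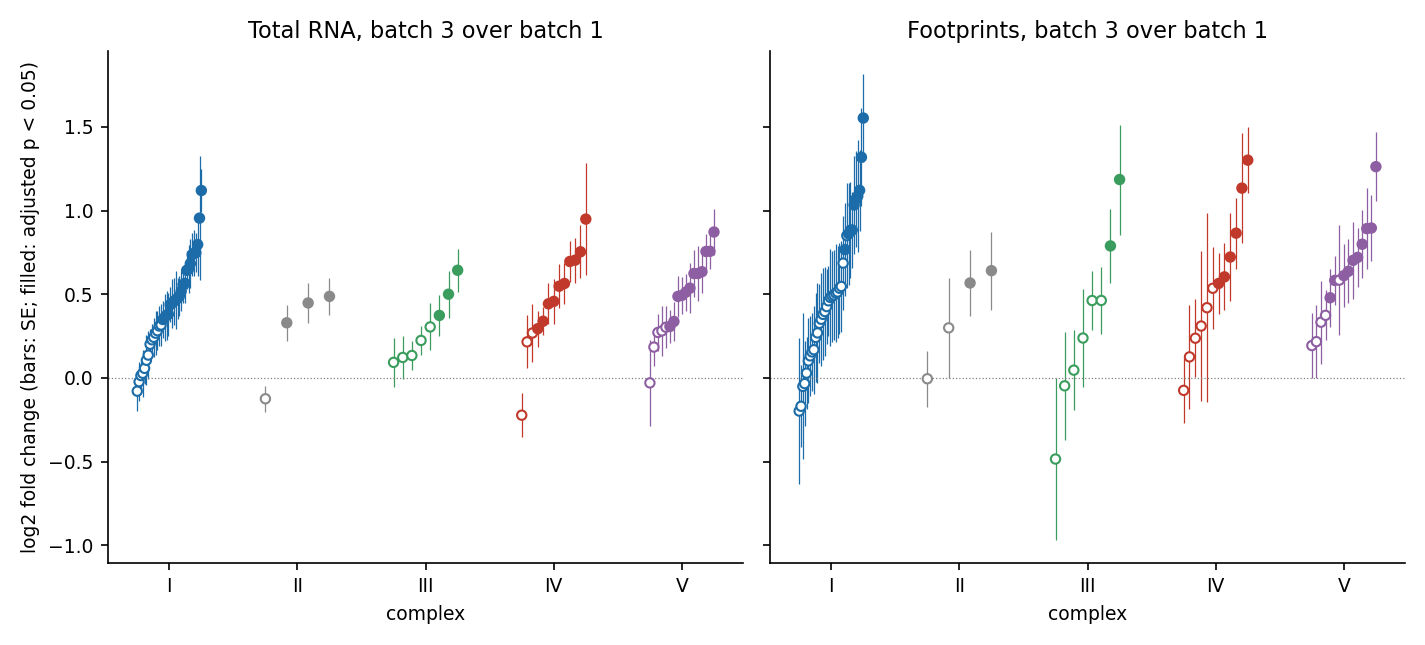
Log2 fold change of batch 3 over batch 1 (vertical axis) of each tested member by complex, in total RNA (left) and footprints (right); bars are standard errors and filled points passed an adjusted p of 0.05. Filled points all lie above 0, 50 of 78 in total RNA and 30 of 75 in footprints.

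Against batch 2, footprints of batch 3 rose in 24 members and fell in 0 (22.5% of all genes were called, 10.9% higher), with a median of 0.47. Cox6b1 (1.23 ± 0.19, adjusted p = 1.43e-05) again had the smallest p, and Atp5g1 (1.16 ± 0.23), Ndufs8 (adjusted p = 0.000822), Atp5b (0.66 ± 0.14), Cox6a1 (0.87 ± 0.19), Cox4nb (1.40 ± 0.31), Ndufa2 (0.98 ± 0.23), Uqcrq (1.41 ± 0.31), Uqcrh (0.87 ± 0.29) and Sdhc (0.73 ± 0.19) rose. The count was 10 without KO5 and 15 without KO6, where 12.5% and 17.8% of all genes were called. Within WT alone the median was 0.00 (38 of 75 higher), within KO alone 0.54 (61 higher).

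Footprints of batch 2 against batch 1 gave 7 members higher and 6 lower (15.4% of all genes were called). Higher were Atp5l (1.02 ± 0.18, adjusted p = 0.000185), Ndufa1 (1.06 ± 0.22), Ndufb5 (0.99 ± 0.21), Ndufb9 (0.92 ± 0.20), Cox7a2 (0.72 ± 0.19), Ndufc2 (0.68 ± 0.20) and Uqcrc1 (0.46 ± 0.16). Lower were Uqcr11 (-1.76 ± 0.33, adjusted p = 0.00073), Cox6a1 (-0.95 ± 0.18, 0.000366), Ndufa2 (-0.83 ± 0.19), Uqcr10 (-0.72 ± 0.22), Ndufb7 (-0.63 ± 0.21) and Uqcrh (-0.63 ± 0.22). Footprints of Uqcr11 were 39.1 to 93.6 CPM in batch 1 and 9.28 to 18.1 CPM in batch 2, far apart, while its total RNA overlapped at 76.9 to 85.8 and 57.8 to 94.1 CPM. Without WT4 7 members were called, where 8.72% of all genes were.

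Translational efficiency separated batch 2 from batch 1 in single genes of both directions. Of 75 members 7 rose and 8 fell (16.7% of 7203 genes were called), with a median of 0.04, so the complexes did not shift as a whole. Cox6a1 fell by 1.65 ± 0.22 on the log2 scale (adjusted p = 1.92e-05): its total RNA went from 86.4 to 93.8 CPM in batch 1 to 102 to 184 in batch 2, and its footprints from 287 to 390.4 to 141 to 186, 2 changes in opposite directions without overlap. Uqcr11 (-1.70 ± 0.37), Cox8a (-1.27 ± 0.31), Ndufa11 (-1.20 ± 0.31), Uqcr10 (-1.05 ± 0.26), Ndufb7 (-0.78 ± 0.22), Ndufa2 (-0.68 ± 0.23) and Atp5d (-0.66 ± 0.21) were lower too. Among those that rose were Atp5l (1.24 ± 0.25), Ndufb5 (1.09 ± 0.23), Ndufa1 (1.09 ± 0.32), Ndufb9 (0.98 ± 0.23), Cox7a2 (0.72 ± 0.24) and Ndufs1 (0.70 ± 0.20). With the culture number as a block, which pairs the 2 libraries of a culture, 13 rose and 11 fell, where 31.7% of 7203 genes were called. Without WT4 7 members were called in all and without KO1 8, where 6.02% and 7.20% of genes were.

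Batch 3 against batch 1 showed 0 of 75 members called in translational efficiency (1.14% of genes were). An unadjusted p under 0.05 was found for 11 members (14.7%, against 12.4% of all genes). DESeq2 called 3, where 1.92% of genes were called, limma 0 and edgeR 1 without WT5. In the main test the closest was Ndufa6 at 1.04 ± 0.28 (adjusted p = 0.066), and the median was 0.08. Batch 3 against batch 2 had 6 higher and 2 lower (9.97% of genes were called): Atp5d (1.05 ± 0.21, adjusted p = 0.00234), Cox6a1 (1.08 ± 0.23), Uqcrq (1.21 ± 0.34), Ndufs7 (1.03 ± 0.29), Cox4nb (0.92 ± 0.27) and Cox6b1 (0.80 ± 0.22) rose, and Uqcrb (-1.13 ± 0.26) and Cox7a2 (-0.92 ± 0.26) fell. With the culture number as a block 7 rose and 12 fell, where 17.5% of genes were called. In all 5 members were called without KO5, without WT4 or without WT5, where 3.84%, 5.64% and 6.28% of genes were. Cox6a1 was called in opposite directions in the comparisons of batch 2 with batch 1 and of batch 3 with batch 2, which share the batch 2 libraries.

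Batches also differed in cell type markers and in sex-linked genes, and the part of these in the members' batch differences was not tested. Of 9 macrophage markers tested in total RNA 7 were lower in batch 3 than in batch 1 and 9 lower than in batch 2, and their sum was 22003 to 29201 CPM in batch 1, 27814 to 49204 in batch 2 and 15352 to 25218 in batch 3. The neutrophil sum was 57.5 to 66.9, 153 to 590.0 and 441 to 590.3 CPM, and Ngp, a granule gene, was at 0 in all total RNA of batch 1 and at 24.1 to 45.9 CPM in batch 3. The markers did not move one way: of 10 tested in total RNA, 7 were called higher in batch 3 than in batch 1 and 2 lower, namely Csf3r (-1.22) and Mmp9 (-1.80). Against batch 2, 5 were called higher and the same 2 lower (-2.32 and -2.42). Xist total RNA was 26.0 to 51.1 CPM in batch 3 and at most 0.91 in the others, and the Y-linked Ddx3y at most 0.15 CPM in batch 3 and 68.7 to 152 in the others, so batch 3 and the sex-linked pattern cannot be told apart. In bulk samples fewer cells of a type and less RNA per cell cannot be told apart.

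Other respiratory genes, from lists chosen by function, were read from the same fits, and 0 genes of the respiratory lists were called between genotypes in total RNA, in footprints or in translational efficiency. Of the 6 electron carriers and subunits outside the naming pattern, 5 rose in total RNA of batch 3 against batch 1 (Etfb by 0.78, Cycs, which is cytochrome c, by 0.60, Etfa by 0.59, Cyc1 by 0.56 and Ndufab1 by 0.41) and all 6 against batch 2, with a median of 0.57 and 0.70. Complex IV assembly factors followed in 7 of 12 genes in both comparisons, among them Cox10 against batch 1 (0.94, adjusted p = 4.13e-05) and Cox16 against both (0.72 and 0.94, adjusted p = 0.00183 and 0.000338), and complex I assembly factors in 4 and 6 of 9, among them Nubpl (0.59 and 1.18). Of 14 citric acid cycle enzymes 4 and 5 rose, where 23.0% and 24.7% of all genes were called higher, with Idh2 at 0.72 and 0.92 and Idh3a at 0.68 and 0.76; Idh3g fell against batch 2. Atpif1, the inhibitor of the ATP synthase, rose by 0.35 and 0.53, and 3 of the 4 complex V factors rose against batch 2. Of complex II and III assembly factors 2 each were tested and 0 called.

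Of 11 regulators of respiratory genes tested, 0 rose in total RNA of batch 3 against batch 1 and 3 fell, where 45.3% of all genes were called in either direction: Polrmt, the mitochondrial RNA polymerase (-0.86, adjusted p = 0.00214), Yy1 (-0.39, 0.00148) and Gabpa, an ETS factor of respiratory promoters (-0.31, 0.0101). Their median was 0.01. Against batch 2, Tfb2m rose (0.40) and Polrmt (-0.86) and Ppargc1b, a coactivator of respiratory genes, fell (adjusted p = 0.0372). In the footprint to RNA ratio all 14 citric acid cycle enzymes were positive and 13 were called higher, with a median of 0.52, led by Mdh2 (1.76) and Suclg1 (1.22), and 5 of 6 carriers were called higher with a median of 0.92. Of 9 regulators 3 were called higher and 3 lower, near the shares of all genes in that fit, 37.3% and 36.6%. Among the lower were Esrra (-1.49) and Nrf1 (-0.83).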

How the data were processed

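Total RNA and ribosome footprints of 12 macrophage cultures (24 libraries, 6 per genotype and kind) were analysed from raw gene counts that the authors deposited; genes absent from a footprint table were taken as 0, and HTSeq summary lines (27.8% to 51.2% of total RNA and 45.6% to 80.1% of footprint reads without a unique alignment) were left out. Per the submitters' processing notes the tools were HTSeq, TopHat2 2.1.0, Bowtie 1.1.2, Cufflinks 2.2.1, Trim Galore, DESeq2 and DESeq, with the mm10 build; their roles, the strand setting and the annotation are not given in the sources used here. From the 2 result tables the authors deposited, p-value and adjusted p-value columns alone were read.

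The main test was edgeR 4.0.16 (R 4.3.3) with TMM scaling, genotype and batch in the model, the filterByExpr filter at a count of 10, robust quasi-likelihood F-tests, and p-values adjusted by Benjamini-Hochberg over every gene tested (threshold 0.05). Standard errors were derived from the fold change and F. Footprints and total RNA were fitted apart, and 7203 genes that passed in both entered a joint model, where translational efficiency is the interaction of molecule with genotype or batch. The scripts were tested on simulated data. Other analyses used limma 3.58.1 (voom, quality weights), DESeq2 1.42.0, other scaling, no filter, no batch term, a replicate block, fewer cultures, and structural subunits alone. Footprints per codon were not run, since no protein lengths were used here. The members and lists were chosen with earlier results of these data known. Named were members past the threshold (where over 5 of a complex passed in 1 direction, those with the smallest p), the smallest p, the extreme ratios and the most abundant RNA of each complex, tissue forms, c ring genes and symbols coding no subunit; others named beside them were chosen after their values were seen. The results of 1 member are not reported here by name.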

Additional observations from a re-analysis of the deposited data

Results flagged for a closer look

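Among 100 sets of 6 cultures examined (complex sums, their ratios and single members, by genotype), 10 had 1 culture far from the other 5 by Dixon's criterion (a gap over 0.625 of the range); chance gives about 1 in 20. WT5, of batch 3, was the high culture among WT in 6 of them: summed total RNA of complex I (2902 CPM) and complex III (1050.0 CPM), total RNA of Atp5l (306 CPM), Uqcr11 (139 CPM) and Uqcrh (264 CPM), and footprints of Atp5g3 (386 CPM). KO5, also of batch 3, was the high KO culture in summed footprints of complex III (1090.1 CPM) and footprints of Cox6b1 (310.1 CPM). WT4 was the high WT culture in footprints of Cox5a (374 CPM), and KO4 the high KO culture in footprints of Cox7c (25.5 CPM).

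The KO against WT difference of Cox5a footprints differed between batches in the interaction test (edgeR, adjusted p = 0.0224).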

How the results depend on the processing

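Counts of called members were 0 between genotypes under all alternatives except those named here. The first of these, the subset of the 4 deepest footprint cultures, compares KO2 and KO4 with WT4 alone for genotype. Its batch 1 is WT1 alone. The shares of all genes called in that subset are not given here, so no conclusion about the members is drawn from its counts. In the 4 cultures with at least 1000000 footprint counts, 52 members were called in total RNA between genotypes (median -0.46) and 31 in footprints (-0.40), and 32 (0.25) and 26 (0.28) for batch 2 against batch 1, where the direction of Uqcrh reversed (0.24); the median ratio of footprints to RNA was 0.65. Leaving out 1 culture at a time gave 0 to 5 genotype calls in footprints (medians -0.28 to 0.0083), 0 in total RNA (-0.25 to -0.06) and 0 in translational efficiency (-0.10 to 0.04). The same gave 5 to 13 (total RNA) and 7 to 13 (footprints, medians -0.20 to 0.23) calls for batch 2 against 1, 38 to 56 and 13 to 33 for batch 3 against 1, and 36 to 54 and 10 to 32 (medians 0.35 to 0.61) for batch 3 against 2. In translational efficiency it gave 7 to 16, 0 to 1 and 5 to 10, and for genotype between batches 0 to 3 in total RNA and 0 to 2 in footprints; without KO1 or WT4 that last test could not be fitted. Single batches gave medians of 0.036 and -0.38 in total RNA (batches 1 and 2) and -0.0075, -0.38 and 0.095 in footprints. The footprint median of all genes in batch 3 was 0.24. DESeq2 called 2 and 0 members for genotype between batches in total RNA and footprints and 3 in translational efficiency of batch 3 against 1, where RLE scaling, and leaving out both KO6 and WT6, called 1. Without KO6 and WT6 the footprint test between batches called 0. With limma, 8 members were called in footprints of batch 2 against 1, 3 for genotype between batches in total RNA (3 also with no filter) and 4 in translational efficiency of batch 3 against 2, and the median of that of batch 3 against 1 was 0.22. Without Cox7a2l the summed ratio of complex IV was 0.24 and with structural subunits 0.26, both chosen after seeing the data. The cause of each was not tested.

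Replicate numbers were shared by KO and WT cultures, but number 3 correlated at 0.03 in total RNA and 0.07 in footprints (deviations from group means, across genes) and the other 5 at 0.33 to 0.81 and 0.12 to 0.33, so the numbers were not taken as pairs; a replicate block left 0 genotype calls in total RNA (median -0.17) and footprints (-0.11 in place of -0.19). For translational efficiency, where the number joins the 2 libraries of a culture (correlations of residuals 0.01 to 0.56), the block gave 24, 1 and 19 calls in batch 2 against 1, 3 against 1 and 3 against 2. Of 125 calls of named members, 66 passed under all alternatives run for them. Depth limits footprints of batch 3: 14 of the 85 genes were at 0 in WT6.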
